A study of Mus musculus with 32 samples.

Results

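Sperm and eggs descend from primordial germ cells (PGCs), which form early in the embryo. In culture, cells that resemble them (PGCLCs) can be made by turning embryonic stem cells (ESCs) into epiblast-like cells (EpiLCs) and exposing aggregates of those to BMP4 and other cytokines. This comparison sets 2 arrays of cytokine-induced PGCLCs at day 6 (Ck-PGCLCs) against 2 arrays of PGCs from embryos at embryonic day 9.5 (E9.5), so 4 of the 32 mouse expression arrays of the series carry it, and 14878 autosomal genes with a single symbol could be tested. The question is how the cultured cells differ from the embryonic cells they stand for.

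The Ck-PGCLCs are labelled as male C57BL/6 cells with the reporters Blimp1-mVenus and stella-ECFP. The PGCs are labelled as C57BL/6 cells of unknown sex with the reporter stella-EGFP, which is why genes of the sex chromosomes were left out of every count. Induction, per the labels' protocols, started from 2000 cells per well in medium holding 500 ng/ml of both BMP4 and BMP8A. LIF (1000 U/ml), SCF (100 ng/ml) and EGF (50 ng/ml) were added to it; the labels attach this text to every array of the series. EpiLCs at 48 h (male C57BL/6, with the reporters of the Ck-PGCLCs) and the epiblast at E5.5 (C57BL/6, unknown sex) gave a second comparison of culture with embryo that shares no array with the first. The other groups described here are ESCs, titled as 2i+LIF ESCs, of the earlier submission to which all 4 of these groups belong. Ck-PGCLCs at days 2 and 4 are also described. Their titles name the Parental clone, and they come from a later submission and another genetic background. All groups have 2 arrays, and all 16 groups of the series enter the fit, so they share 1 estimate of the spread: with the 4 compared arrays alone 148 genes were higher and 106 lower, against the 577 and 503 given below. The series' design text calls them biological duplicates, but no label names separate cultures, litters or a sort of these cells, so p-values measure only the spread between arrays, part of which may be technical. Both reporters of the Ck-PGCLCs and the reporter of the PGCs are driven by germ cell genes; whether a transgene adds to the Prdm1 (Blimp1) or Dppa3 (stella) signal was not examined.

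By background, a mouse PGC is set aside from the epiblast by BMP signals that switch on Prdm1, Prdm14 and Tfap2c, a trio of transcription factors that shut down the somatic programme, keep pluripotency genes on and start the erasure of epigenetic marks. PGCs at E9.5 are leaving the hindgut on their way to the gonads and have not yet started meiosis. Genes such as Dazl and Ddx4 are commonly used to mark the later germ cells that reach the gonad.

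Levels are quantile-normalised log2 values, and a difference is the Ck-PGCLC mean minus the PGC mean on that log2 scale, with its standard error (SE) from limma. A gene is said to have risen (be higher) or fallen (be lower) if its Benjamini-Hochberg adjusted p in limma, over all genes tested, was under 0.05 and its change at least 2-fold. By this rule 577 genes, 3.88% of those tested, were higher in Ck-PGCLCs, and 503 genes, 3.38%, were lower, so 7.26% were called in all. These shares are the background for every list count below, and a short list can hold a call or more at them. The difference was under 2-fold in 90.1% of genes, and its median over all genes was -0.002. Changes of at least 4-fold were called for 153 genes that were higher and 171 that were lower. Array pairs across the comparison correlated at r = 0.9382 to 0.9597 across genes, while the replicate pairs reached 0.9742 for Ck-PGCLCs and 0.9711 for PGCs; genes within an array are not independent.

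The PGC arrays were not alike in the genes that carry the comparison. Array 1 exceeded array 2 in 74.0% of the 503 lower genes (median gap 0.41) and in 64.8% of the 577 higher genes, against 52.1% of all genes. Without PGC array 1 the lower count was 322, and without PGC array 2 it was 616, so most gene groups below are given with the counts found when an array is left out. The Gapdh control difference between the 5' and 3' probe sets, a sign of RNA quality, was -1.41 and -0.92 in Ck-PGCLCs, against -1.5 and -0.19 in PGCs. With it as a covariate, 583 genes were higher and 511 lower. A probe set below 4.05, the 40th percentile of all values, is called dim here; where the mean of 1 group is dim, the fold is given as a lower bound, counted from 4.05. A log2 difference printed for such a gene is the measured one, and its size and rank rest on values under the dim level. In bulk arrays like these, fewer cells of a type and less RNA per cell cannot be told apart.

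The genes that define an early germ cell were bright in culture and in the embryo, and most differed by little. Of 12 tested members of the early germ cell list 0 were higher and 1 was lower, with a median difference of -0.19, and all 12 were above the dim level in each of the 4 arrays. In 7 members both Ck-PGCLC arrays lay below both PGC arrays, an order found in 20.2% of all genes. Prdm1 read 10.42 and 10.57 in Ck-PGCLCs, against 10.21 and 10.75 in PGCs, a difference of 0.02 ± 0.33 (adjusted p = 0.986, limma). Its partner Prdm14 read 10.79 and 11.002 in Ck-PGCLCs, against 10.60 and 10.75 in PGCs (difference 0.22 ± 0.25, adjusted p = 0.715, limma). For the third factor, Tfap2c, the values were 11.76 and 11.75 in Ck-PGCLCs and 11.87 and 12.20 in PGCs, with a difference of -0.28 ± 0.29 (adjusted p = 0.675, limma). The arrays of the groups overlapped for Prdm1 and did not for Tfap2c, which was slightly lower in both Ck-PGCLC arrays. A 2-fold change (1 on the log2 scale) lies more than 2 SE from each of these 3 differences, whereas smaller changes could not be told from none. In the epiblast at E5.5 the 3 genes averaged 4.08, 2.68 and 7.70, so both kinds of germ cell lay far from it.

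Dppa3 (stella), a maternal and germ cell factor that protects DNA methylation marks in the zygote, read 12.95 and 13.01 in Ck-PGCLCs, against 13.02 and 13.22 in PGCs. Kit, the receptor for SCF on which PGC survival depends, read 11.43 and 11.77 in Ck-PGCLCs and 11.55 and 12.12 in PGCs. Neither gene was called (differences -0.14 ± 0.25 and -0.24 ± 0.26), although the other Kit probe set gave -1.25. Dnd1, an RNA-binding protein needed for PGC survival, read 10.75 and 10.55 in Ck-PGCLCs, against 11.41 and 11.24 in PGCs; its arrays did not overlap, but the difference of -0.68 ± 0.28 did not pass the test (adjusted p = 0.142, limma). Alkaline phosphatase Alpl and the interferon-induced membrane proteins Ifitm1 and Ifitm3, classic surface and enzyme markers of PGCs, differed by -0.42, -0.18 and -0.15, none of them called; Ck-PGCLCs were the lower in both arrays of each. The exception in this list was Lin28a, an RNA-binding protein that blocks let-7 maturation: it read 8.15 and 7.73 in Ck-PGCLCs, against 9.96 and 9.88 in PGCs, and fell by 1.98 (SE 0.43, adjusted p = 0.00374, limma). All 4 fits that left out 1 array also called 1 member lower. Nanos3 was not analysed here.

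**Figure D1:**
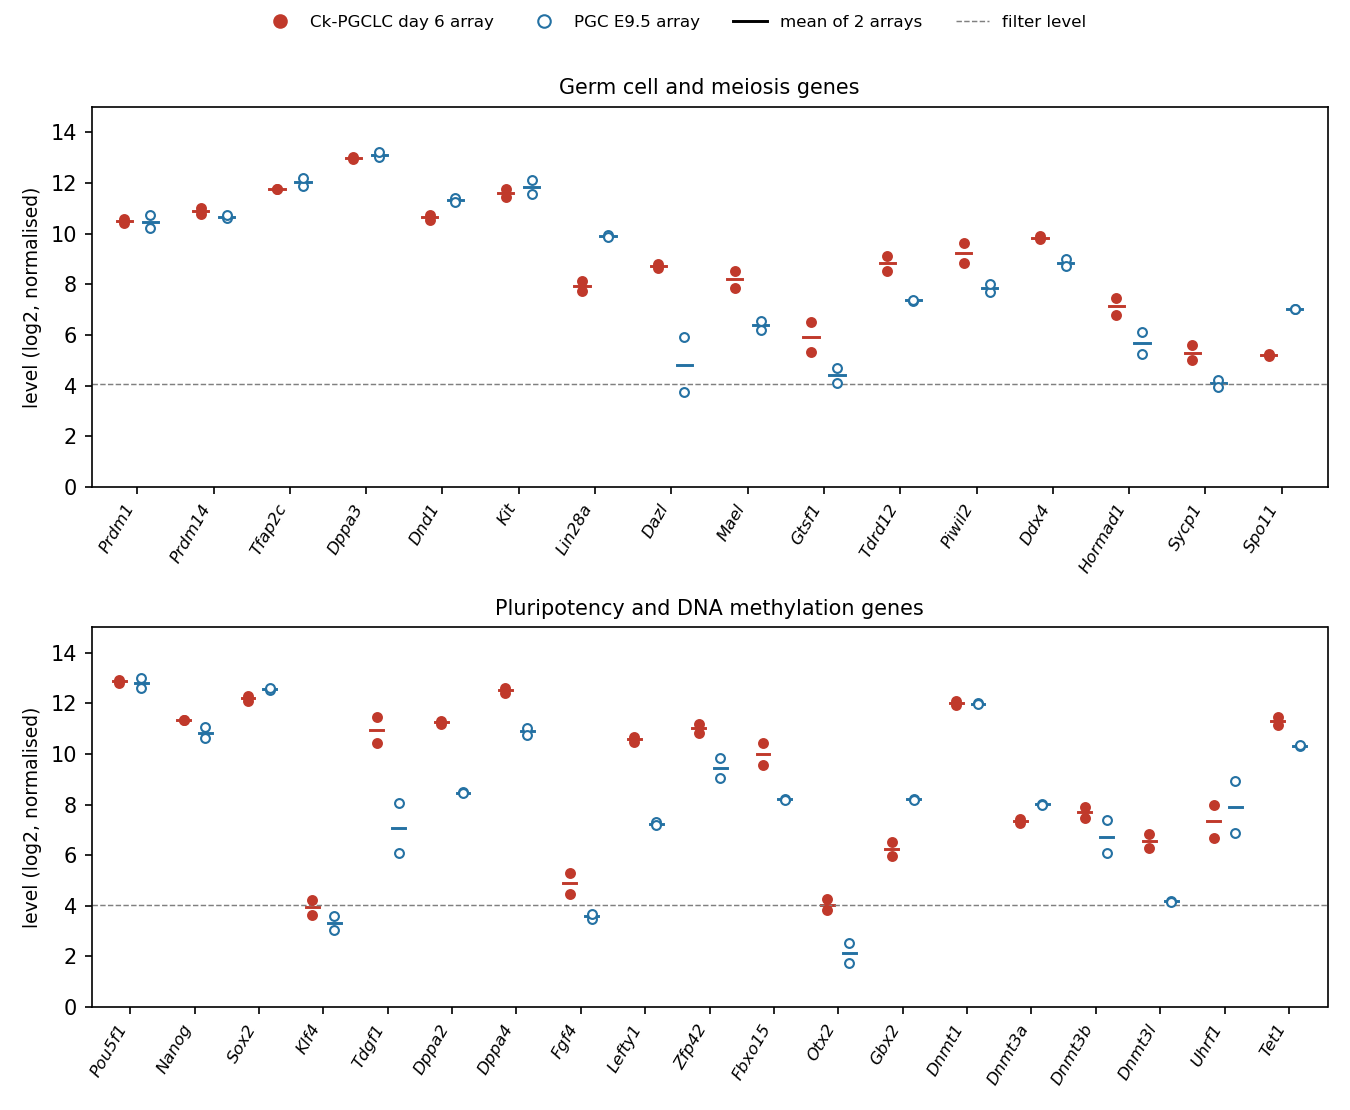
Log2 level (y axis) of germ cell and meiosis genes (upper panel) and of pluripotency and DNA methylation genes (lower panel) in each array; filled points are the 2 Ck-PGCLC day 6 arrays, open points the 2 PGC E9.5 arrays, short bars the means of 2 arrays and the dashed line the filter level of 4.05. Prdm1, Prdm14, Dppa3 and Pou5f1 lie within 0.3 of each other in the means of both groups, while Dazl, Tdgf1, Dppa2 and Lefty1 lie higher in Ck-PGCLCs and Lin28a lower.

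Later germ cell genes and genes of the piRNA pathway, which silences transposons in germ cells, were called in 1 direction, higher in Ck-PGCLCs. Of 19 tested members 5 were higher and 0 lower, beside the 3.88% and 3.38% of all genes, and the median difference was 0.71. Leaving out 1 array gave 3 to 5 higher members, with 3 when Ck-PGCLC array 2 was left out, and 6 were higher when each array was centred on its median instead. Dazl, an RNA-binding protein that licenses germ cells for sexual differentiation, read 8.79 and 8.62 in Ck-PGCLCs, against 5.91 and 3.75 in PGCs. It rose by 3.88 ± 0.55 (adjusted p = 7.15e-05, limma), with PGC array 2 dim and PGC array 1 well above the dim level. The other Dazl probe set differed by 0.51.

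Mael, a piRNA pathway component, read 7.87 and 8.54 in Ck-PGCLCs and 6.56 and 6.21 in PGCs, a rise of 1.82 ± 0.34 (adjusted p = 0.000901, limma). Piwil2, one of the PIWI proteins that bind piRNAs, read 8.85 and 9.64 in Ck-PGCLCs, against 7.69 and 8.02 in PGCs, and rose by 1.38 ± 0.33 (adjusted p = 0.00735, limma). The other piRNA factors called higher were Gtsf1, by 1.52, whose other probe set gave -0.11, and Tdrd12, by 1.46. Ddx4 (Vasa), an RNA helicase of germ granules, read 9.77 and 9.89 in Ck-PGCLCs and 8.98 and 8.72 in PGCs; its adjusted p was 0.00347 in limma, and its difference of 0.98 ± 0.21 fell just short of 2-fold. Brdt and Mov10l1, a bromodomain protein of spermatogenic cells and a piRNA helicase, differed by 1.28 and 0.71 and were not called. Dazl, Mael and Ddx4 were also measured well above the dim level in the epiblast at E5.5 (7.04, 8.36 and 8.80 on average) and in EpiLCs at 48 h (7.56, 9.28 and 8.73), so these transcripts were not limited to the germ cell groups.

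Of 19 tested meiosis genes 2 were higher and 1 was lower, beside 3.88% and 3.38% of all genes, and the median difference was 0.005. So few calls are not read as a result about this list. Hormad1 and Sycp1, components of the meiotic chromosome axis and of the synaptonemal complex, rose by 1.45 and 1.22; neither was called without Ck-PGCLC array 2 or without PGC array 2. Spo11, which makes the DNA breaks that start recombination, read 5.25 and 5.18 in Ck-PGCLCs, against 7.01 and 7.01 in PGCs, and fell by 1.80 (SE 0.36, adjusted p = 0.00169, limma). Sycp3 read 7.21 and 7.24 in Ck-PGCLCs and 6.80 and 6.67 in PGCs and was not called.

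The promoter of Mael is shown because the 6 bases CACGTG, the E-box read by Myc, Max and Mga, were searched in the later germ cell genes; Mga and Max belong to a repressor complex that acts on germline genes in mouse ESCs. The sequence covers the 250 bases before the RefSeq start (assembly GRCm38.p6, chr1:166238745-166238994, minus strand), with the match in capitals.
Mael: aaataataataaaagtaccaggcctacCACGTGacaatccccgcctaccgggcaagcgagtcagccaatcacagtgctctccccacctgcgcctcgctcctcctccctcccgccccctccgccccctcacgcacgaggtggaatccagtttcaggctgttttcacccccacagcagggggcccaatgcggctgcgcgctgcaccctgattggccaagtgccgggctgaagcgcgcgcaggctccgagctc
CACGTG, which is its own reverse complement, occurred in the 250 bases before the start of 7 of 18 tested later germ cell genes with a RefSeq promoter, against 8.0% of the 11941 tested autosomal genes and 6.0% of all 25748 autosomal promoters. Of the 4 called members with a promoter, only Mael held it. GCGGGAA, read by E2F6, occurred in 2 of the 18, against 6.4% of the tested genes. A match describes these letters only. Of 11 tested repressors of germline genes, 1 was higher: Cbx3, a heterochromatin protein, read 7.22 and 6.36 in Ck-PGCLCs, against 4.51 and 4.47 in PGCs (difference 2.30 ± 0.53, adjusted p = 0.00622, limma), but 0 members were called without Ck-PGCLC array 1.

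Oct4, Sox2 and Nanog were not called, while Tdgf1, Dppa2, Dppa4 and Fgf4 were higher in Ck-PGCLCs. Of 13 core pluripotency genes 4 were higher and 0 lower (median 0.52; 3 or 4 higher with 1 array left out). Pou5f1 (Oct4) read 12.82 and 12.92 in Ck-PGCLCs, against 12.61 and 12.98 in PGCs, Sox2 12.30 and 12.09 in Ck-PGCLCs, against 12.51 and 12.59 in PGCs, and Nanog 11.35 and 11.35 in Ck-PGCLCs, against 10.62 and 11.05 in PGCs. None of the 3 was called, and the differences were 0.07 ± 0.14, -0.36 ± 0.20 and 0.52 ± 0.45. Tdgf1 (Cripto), the co-receptor for Nodal, read 11.48 and 10.44 in Ck-PGCLCs, against 8.06 and 6.10 in PGCs, and rose by 3.88 ± 0.48, or 14.7-fold (adjusted p = 1.48e-05, limma). Both Ck-PGCLC arrays lay above both PGC arrays, and the PGC arrays were themselves about 2 units apart.

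Dppa2 and Dppa4, chromatin partners that keep developmental promoters open to activation, both rose. Dppa2 read 11.18 and 11.32 in Ck-PGCLCs and 8.49 and 8.46 in PGCs (difference 2.78 ± 0.27, adjusted p = 7.89e-07, limma). Dppa4 read 12.42 and 12.60 in Ck-PGCLCs and 11.04 and 10.76 in PGCs (difference 1.61 ± 0.19, adjusted p = 1.07e-05, limma). For both genes the replicates of a group differed by less than 0.3. Fgf4 rose by 1.31, or at least 1.79-fold, with its PGC arrays dim. Gdf3, a TGF-beta family ligand, passed the test downward (adjusted p = 0.000369, limma) with a difference of -0.95, just under 2-fold, while Dppa5a and Utf1 passed it upward at 0.69 and 0.73, also under 2-fold.

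Among 15 naive pluripotency genes 4 were higher and 1 lower (median 0.49; 3 or 4 higher with 1 array left out). Lefty1, a secreted inhibitor of Nodal, read 10.45 and 10.68 in Ck-PGCLCs, against 7.31 and 7.19 in PGCs, a rise of 3.32 ± 0.26 (adjusted p = 5.86e-08, limma). Zfp42 (Rex1), a marker of the naive state, rose by 1.58 ± 0.21, Fbxo15, an Oct4 target, by 1.79 ± 0.44, and the transcription factor Tfcp2l1 by 1.52 ± 0.28. Beside this list, 3.88% of all genes were called higher and 3.38% lower. Esrrb was not called (11.97 and 12.12 in Ck-PGCLCs, against 11.35 and 11.63 in PGCs), nor was Klf4 (4.24 and 3.65 in Ck-PGCLCs, against 3.05 and 3.59 in PGCs), whose other probe set read 4.58 and 4.30 in Ck-PGCLCs, against 2.79 and 3.57 in PGCs. The homeobox gene Gbx2 went the other way, with 6.54 and 5.98 in Ck-PGCLCs, against 8.23 and 8.19 in PGCs (difference -1.95 ± 0.33, adjusted p = 0.000424, limma).

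Of 14 primed epiblast genes 2 were higher and 4 lower, beside 3.88% and 3.38% of all genes. Otx2, which holds cells in the epiblast state and opposes entry into the germ line, was called higher, with 3.83 and 4.26 in Ck-PGCLCs, against 2.53 and 1.72 in PGCs, values near or below the dim level that lie far under its 8.94 in EpiLCs and 10.43 in the epiblast. Sox11, a transcription factor of embryonic and neural progenitors, was at least 10.1-fold lower, with 3.50 and 4.54 in Ck-PGCLCs, against 7.99 and 6.77 in PGCs. The transcription factor Sall2 fell by 2.98 (SE 0.47) and Fgf5 by 1.55. Fgf8 was called lower although both group means were dim (2.33 and 2.55 in Ck-PGCLCs, against 4.97 and 3.12 in PGCs), so no fold is given for it. For Sox11 the 5 probe sets above the dim level ranged from -3.36 to -0.09. The lower count was 2 or 3 with any array left out. The second higher member, Lefty2, is also a Nodal inhibitor and is given next.

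Nodal pathway genes carried some of the same names. Of 12 tested, Tdgf1, Lefty1 and Lefty2 were higher and follistatin (Fst), a binding protein of activin, was lower. The shares of all genes called higher and lower were 3.88% and 3.38%. Lefty2 read 10.25 and 10.63 in Ck-PGCLCs, against 6.96 and 6.36 in PGCs, and rose by 3.78 ± 0.29, or 13.7-fold (adjusted p = 5.76e-08, limma). The arrays of each group were close to each other and the groups did not overlap. Fst read 3.35 and 3.996 in Ck-PGCLCs and 6.13 and 5.20 in PGCs, at least 3.06-fold lower, and was not called without PGC array 1.

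Among the enzymes of DNA and histone methylation 1 gene, Dnmt3l, was called, beside 7.26% of all genes. Lists of this size would hold few calls at that share. Of 19 tested genes of DNA methylation, oxidation and base repair 1 was higher and 0 lower, and of 23 histone lysine methylation genes 0 were called in either direction (0 in each of the 4 fits without 1 array too). The maintenance methyltransferase Dnmt1 read 11.95 and 12.08 in Ck-PGCLCs, against 11.99 and 11.97 in PGCs (difference 0.03 ± 0.13). Its recruiter Uhrf1 read 7.99 and 6.70 in Ck-PGCLCs and 8.91 and 6.86 in PGCs, so the replicates of each group were further apart than the groups. The de novo enzyme Dnmt3a read 7.27 and 7.42 in Ck-PGCLCs, against 8.04 and 7.997 in PGCs. Its relative Dnmt3b read 7.91 and 7.48 in Ck-PGCLCs, against 7.37 and 6.10 in PGCs. Neither was called, and their epiblast means, 11.74 and 13.29, were far higher. Dnmt3l, the catalytically inactive partner of those enzymes, read 6.82 and 6.27 in Ck-PGCLCs, against 4.19 and 4.16 in PGCs, and rose by 2.37 ± 0.26, or 5.17-fold (adjusted p = 4.32e-06, limma).

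For the oxidase Tet1 the values were 11.13 and 11.46 in Ck-PGCLCs and 10.32 and 10.34 in PGCs, without overlap, and the difference of 0.97 ± 0.36 did not pass the test (adjusted p = 0.0901, limma). The H3K9 methyltransferase pair Ehmt1 and Ehmt2 differed by 0.34 ± 0.24 and 0.03 ± 0.18, and the H3K27 methyltransferase Ezh2 by 0.03 ± 0.17. For these 3 the 2-fold size used for calls lies outside 2 SE.

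Hox genes, which pattern the body axis, held the most lower calls of the 35 lists. Of 29 tested 0 were higher and 13 lower, with a median difference of -1.27, against -0.002 over all genes, and in 23 of them both Ck-PGCLC arrays lay below both PGC arrays, an order found in 20.2% of all genes. The lower count was 8 without PGC array 1 and 16 without PGC array 2. Hoxb1 read 2.59 and 2.67 in Ck-PGCLCs, against 7.14 and 6.06 in PGCs, a difference of -3.97 ± 0.46 (at least 5.85-fold lower, adjusted p = 6.7e-06, limma). Hoxc8 read 2.53 and 2.33 in Ck-PGCLCs and 7.16 and 5.44 in PGCs (at least 4.75-fold lower, adjusted p = 2.42e-05, limma). Both Ck-PGCLC arrays were dim for each of these genes and both PGC arrays were not.

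Hoxb9 read 4.24 and 3.55 in Ck-PGCLCs and 8.15 and 6.88 in PGCs, at least 11.1-fold lower. Hoxa2 and Hoxc4 were lower by at least 2.73-fold and 4.64-fold, and the PGC arrays of Hoxc4 stood apart, at 8.12 and 4.40. Hoxb2 was at least 7.07-fold lower and Hoxd9 fell by 2.78. The summed linear signal of the 31 measured Hox genes was 765 and 803 in Ck-PGCLCs, against 2988 and 1424 in PGCs, so PGC array 1 held most of the excess. For several members the brightest probe set, which was used here, differed from others: Hoxa5 by -0.24 but as low as -3.70, Hoxa9 by 0.01 but as low as -2.83, and Hoxc6 by -0.74 but as low as -3.28. With the mean of all probe sets 15 Hox genes were lower.

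Mesenchyme and matrix genes were also mostly called lower: of 20 tested, 1 was higher and 8 were lower (median -0.98; 4 lower without PGC array 1, 12 without PGC array 2). Meox1, a somite transcription factor, read 1.64 and 3.27 in Ck-PGCLCs, against 7.64 and 6.03 in PGCs (at least 6.91-fold lower, adjusted p = 0.000712, limma). Twist1, a mesoderm and neural crest factor, read 3.20 and 3.76 in Ck-PGCLCs and 8.45 and 6.13 in PGCs, at least 9.46-fold lower. In both genes PGC array 1 was the higher one by more than 1 unit. Foxc2, a factor of the paraxial mesoderm, was at least 7.48-fold lower but not called without PGC array 1, and the secreted or matrix genes Mdk, Postn and Col3a1 fell by 2.32, 2.26 and 2.10. Dcn, a matrix proteoglycan, was at least 1.77-fold lower (2.29 and 2.73 in Ck-PGCLCs, against 5.63 and 4.11 in PGCs). Dcn and Col3a1 were not called without PGC array 1. The basement membrane gene Nid1 rose by 2.23 ± 0.36, and Vim was not called at 0.46. Beside this list, 3.88% of all genes were called higher and 3.38% lower. The summed linear signal of this list was 5793 and 5400 in Ck-PGCLCs, against 12109 and 5466 in PGCs, so PGC array 2 lay between the Ck-PGCLC arrays on that sum, which the brightest members weigh on most. The mean log2 level of its 21 measured members was 5.40 and 5.68 in Ck-PGCLCs, against 7.39 and 6.21 in PGCs. At or above the dim level were 14 and 15 members in Ck-PGCLCs, against 20 and 18 in PGCs. On both of these measures PGC array 2 lay above both Ck-PGCLC arrays.

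The embryonic globins Hbb-y and Hba-x had the largest measured falls of the comparison. Hbb-y, the embryonic beta-like chain of yolk sac erythrocytes, read 0.64 and 3.18 in Ck-PGCLCs, against 12.50 and 11.34 in PGCs, at least 234-fold lower (adjusted p = 8.6e-08, limma). Hba-x, the embryonic alpha-like chain, read 4.62 and 4.46 in Ck-PGCLCs, against 12.56 and 11.44 in PGCs, 176-fold lower (difference -7.46 ± 0.26, adjusted p = 9.53e-13, limma). Hbb-bh1 read 5.09 and 5.64 in Ck-PGCLCs and 11.33 and 9.25 in PGCs. In ESCs, which carry no blood, Hbb-y, Hba-x and Hbb-bh1 averaged 3.51, 4.56 and 5.09.

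Across the blood cell list 4 of 12 tested members were lower and 1 was higher. The fourth lower gene, the erythroid factor Klf1, read 3.999 and 4.36 in Ck-PGCLCs and 6.31 and 4.87 in PGCs. Klf1 was called without PGC array 2 but not without any other array. Cd68, a lysosomal protein of macrophages, rose by 1.15 but was not called without Ck-PGCLC array 1 or without PGC array 2. The adult alpha globin Hba-a1, the leukocyte marker Ptprc and Rhag were dim in all 4 arrays, with Ptprc at 3.001 and 1.91 in Ck-PGCLCs and 3.62 and 3.59 in PGCs. The summed linear signal of the list was 463 and 505 in Ck-PGCLCs, against 14922 and 6408 in PGCs, and of its 15 measured members 9 and 10 were at or above the dim level in Ck-PGCLCs, against 12 and 11 in PGCs. What part red blood cells or somatic cells among the collected PGCs have in the lower Hox, mesenchyme and globin genes was not tested; all 3 lists were higher in PGC array 1 than in PGC array 2.

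**Figure D2:**
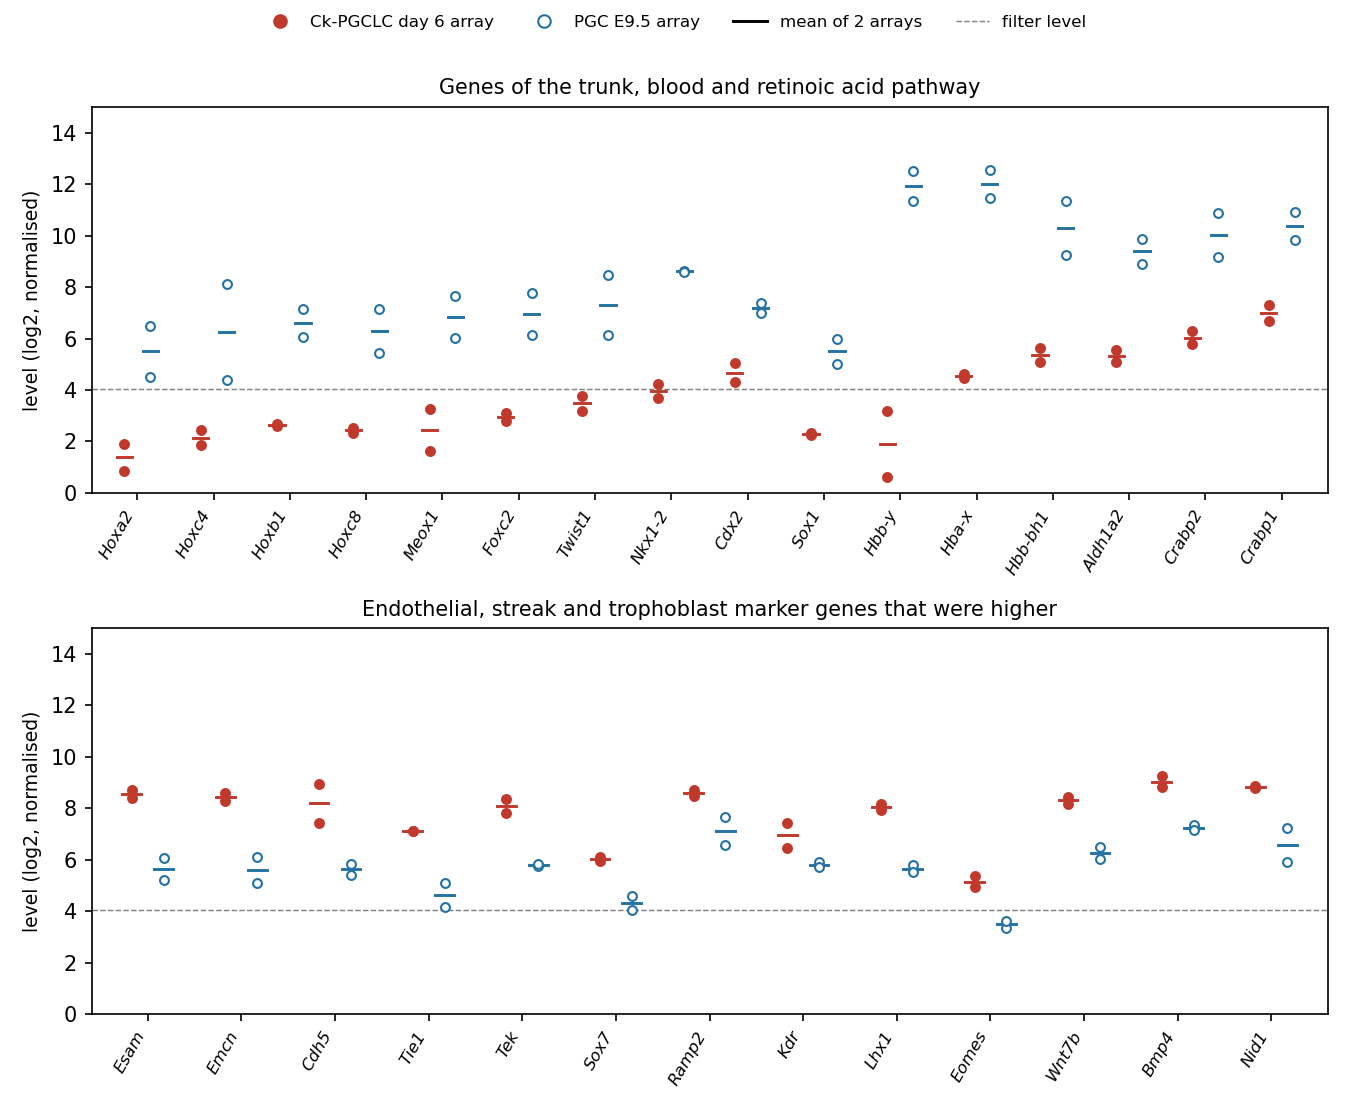
Log2 level (y axis) of genes of the trunk, blood and retinoic acid pathway (upper panel) and of endothelial, streak and trophoblast markers with other called genes (lower panel) in each array; filled points are the 2 Ck-PGCLC day 6 arrays, open points the 2 PGC E9.5 arrays, short bars the means of 2 arrays and the dashed line the filter level of 4.05. Hoxb1, Hoxc8 and Hbb-y are under the line in Ck-PGCLCs and above it in PGCs, and PGC array 1 is often the higher of the pair; Esam and Emcn are near 8.5 in Ck-PGCLCs, against 5 to 6 in PGCs.

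Retinoic acid pathway genes were lower in Ck-PGCLCs, with 5 of 11 tested members lower and 0 higher (median -0.73; 4 or 5 lower with 1 array left out). Aldh1a2 (Raldh2), the enzyme that makes retinoic acid in the trunk mesoderm, read 5.57 and 5.08 in Ck-PGCLCs, against 9.89 and 8.89 in PGCs, 16.7-fold lower (difference -4.06 ± 0.36, adjusted p = 3.03e-07, limma). The intracellular retinoid carriers moved with it: Crabp2 read 6.28 and 5.77 in Ck-PGCLCs and 10.87 and 9.17 in PGCs, and Crabp1 7.29 and 6.70 in Ck-PGCLCs and 10.93 and 9.82 in PGCs. Their differences were -3.99 ± 0.47 and -3.38 ± 0.55. Over all genes 3.38% were called lower. The receptor Rarb, itself a retinoic acid target, fell by 1.80, and Stra6, a retinol transporter, by 1.26, its call being lost with any array left out. The summed linear signal of the list was 827 and 702 in Ck-PGCLCs, against 5524 and 2647 in PGCs, and again PGC array 1 was the higher; the part of other cells in this was not tested.

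Streak and tailbud genes were mixed, beside 3.88% of all genes called higher and 3.38% lower. Of 24 tested primitive streak and nascent mesoderm genes 3 were higher and 6 lower, but the lower count was 2 in 3 of the 4 fits without 1 array and 5 without PGC array 2. Nkx1-2, a homeobox gene of the tailbud progenitors that build the trunk, read 4.23 and 3.67 in Ck-PGCLCs, against 8.63 and 8.60 in PGCs, at least 23.6-fold lower (adjusted p = 8.34e-06, limma), with its 3 probe sets above the dim level ranging from -4.66 to -0.17. Its PGC arrays lay within 0.1 of each other. Cdx2, the caudal homeobox factor upstream of posterior Hox genes, fell by 2.49 (adjusted p = 0.0435, limma) and Msx1 by 1.59 ± 0.19; Fgf8, Sp5 (at least 2.25-fold lower) and the WNT enhancer Rspo3 (-1.48) completed the 6. Kdr was the third higher member, beside the 2 that follow. It was called without Ck-PGCLC array 1 but not without any other array. Each fit without 1 array called fewer higher members too. Lhx1 and Eomes, factors of the node, mesoderm and endoderm, rose: Lhx1 read 8.16 and 7.93 in Ck-PGCLCs, against 5.79 and 5.53 in PGCs, and Eomes 4.95 and 5.35 in Ck-PGCLCs, against 3.35 and 3.63 in PGCs. Both PGC arrays were dim for this Eomes probe set. The other Eomes probe set read 5.43 and 5.82 in Ck-PGCLCs, against 5.14 and 5.05 in PGCs, a difference of 0.53. None of Cdx2, Rspo3 and Lhx1 was called with any 1 of the 4 arrays left out.

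Of 19 gut and endoderm genes 1 was higher, Cldn4 (by 2.08), and 3 were lower. Foxa1 was at least 2.4-fold lower (2.99 and 1.98 in Ck-PGCLCs, against 5.10 and 5.52 in PGCs), Apoa1 at least 2.92-fold lower, and Ttr fell by 1.67. Afp was not called, but its 5 probe sets, all above the dim level, ranged from -6.28 to -0.48. With the mean of all probe sets 4 members were lower. Apoa1 and Ttr were not called with any 1 array left out, while Foxa1 was in each such fit. Of 10 neural genes 1 was higher and 2 lower, with the proneural factor Neurog2 and Sox1 at least 4.4-fold and 2.73-fold lower. Without PGC array 1 the lower count was 1 and Neurog2 was not called, without PGC array 2 it was 4, and Sox1 was not called with the mean of all probe sets. Nr2f1 and Pcdh8, a nuclear receptor of neural and mesodermal tissue and a protocadherin of the paraxial mesoderm, were among the 15 largest measured falls. Nr2f1 read 1.66 and 2.56 in Ck-PGCLCs, against 8.08 and 6.27 in PGCs, and Pcdh8 1.51 and 1.20 in Ck-PGCLCs, against 7.69 and 5.72 in PGCs, at least 8.73-fold and 6.3-fold lower.

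Endothelial genes held the most higher calls of the 35 lists. Of 15 tested, 8 were higher and 0 lower (median 1.47), and in 13 both Ck-PGCLC arrays lay above both PGC arrays, an order found in 22.2% of all genes. The higher count was 2, Esam and Tek, without PGC array 2, and 5 or 6 without any other array. Esam, an adhesion molecule of endothelial junctions, read 8.71 and 8.39 in Ck-PGCLCs, against 6.07 and 5.23 in PGCs (difference 2.90 ± 0.46, adjusted p = 0.0002, limma). The receptor Tek (Tie2) read 7.80 and 8.38 in Ck-PGCLCs, against 5.77 and 5.84 in PGCs (difference 2.28 ± 0.28, adjusted p = 1.55e-05, limma). For both genes each Ck-PGCLC array lay at least 1.5 above each PGC array.

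Endomucin (Emcn) read 8.30 and 8.61 in Ck-PGCLCs and 6.09 and 5.09 in PGCs, and VE-cadherin (Cdh5) 8.96 and 7.42 in Ck-PGCLCs and 5.40 and 5.85 in PGCs. The others called higher were Tie1, Sox7, Ramp2 and Kdr, by 2.49, 1.70, 1.47 and 1.14. Cdh5, Tie1 and Kdr were close to the threshold (adjusted p = 0.0220, 0.0342 and 0.0231, limma). The markers Pecam1, Plvap and Cldn5 were not called, at 0.69 ± 0.97, 0.84 ± 0.36 and 0.54 ± 0.33; Pecam1 is also made by pluripotent and germ cells. In Ck-PGCLCs at day 4 Esam, Emcn, Cdh5 and Tie1 averaged 7.42, 5.43, 6.59 and 5.47, between their levels at day 2 (4.37, 4.01, 3.81 and 2.54) and day 6, although the days come from 2 submissions. The summed linear signal of the list was 4436 and 4458 in Ck-PGCLCs, against 2095 and 2124 in PGCs, and whether endothelial cells were present in the aggregates was not tested.

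LIF acts through STAT3, and 5 of 14 tested genes of its response were higher and 1 was lower (median 0.42). The shares over all genes were 3.88% and 3.38%. The same 5 higher calls were made in each of the 4 fits without 1 array. Bcl3, a nuclear cofactor of NF-kappaB, read 8.59 and 8.05 in Ck-PGCLCs, against 3.63 and 2.64 in PGCs, at least 19.3-fold higher (adjusted p = 5.91e-09, limma). Socs3, the feedback inhibitor of the LIF receptor, read 9.01 and 8.41 in Ck-PGCLCs, against 5.09 and 3.98 in PGCs, 18-fold higher (difference 4.17 ± 0.44, adjusted p = 3.03e-06, limma). Its 3 probe sets gave 3.28 to 4.32. Both genes had all Ck-PGCLC values above 8 and all PGC values below 5.1.

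Junb, an AP-1 transcription factor, read 9.24 and 8.73 in Ck-PGCLCs and 6.55 and 5.97 in PGCs, a rise of 2.73 ± 0.35. Stat3 itself read 9.08 and 9.09 in Ck-PGCLCs and 7.71 and 7.33 in PGCs, a rise of 1.57 ± 0.17, with probe sets above the dim level from 0.28 to 1.57. With the mean of all probe sets Stat3 and Tfcp2l1 were not called. The fifth was Tfcp2l1 and the one that fell was Gbx2, both given above. Bcl3 and Socs3 averaged 9.13 and 10.10 in the ESCs, whose title names LIF, and 5.54 and 5.80 in EpiLCs. The part of LIF in the medium in these differences was not tested.

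The Socs3 promoter is shown because it alone, of 13 tested members with a RefSeq promoter, held the STAT motif TTCNNNGAA (its own reverse complement) in the 250 bases before its start; 6.0% of tested genes hold it. The sequence is from GRCm38.p6, chr11:117969367-117969616, minus strand, with the motif in capitals.
Socs3: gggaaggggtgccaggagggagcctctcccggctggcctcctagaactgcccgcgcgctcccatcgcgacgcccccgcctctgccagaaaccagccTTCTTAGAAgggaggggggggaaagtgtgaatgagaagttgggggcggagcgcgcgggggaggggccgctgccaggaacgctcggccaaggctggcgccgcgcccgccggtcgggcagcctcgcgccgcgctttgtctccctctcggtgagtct
The promoters of Bcl3, Junb, Stat3 and Tfcp2l1 did not hold these letters in this window, which says nothing of STAT3 binding elsewhere.

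Genes induced by p53, the DNA damage response factor, were higher in Ck-PGCLCs in 7 of 11 tested members and lower in 0. The median was 1.35, and in all 11 both Ck-PGCLC arrays lay above both PGC arrays, an order found in 22.2% of all genes. Over all genes 3.88% were called higher. Leaving out 1 array gave 5 to 8 higher members. Phlda3, an inhibitor of Akt, read 9.87 and 9.94 in Ck-PGCLCs, against 7.54 and 6.78 in PGCs (difference 2.74 ± 0.18, adjusted p = 6.48e-09, limma). Cyclin G1 (Ccng1) read 10.11 and 10.41 in Ck-PGCLCs, against 7.98 and 7.52 in PGCs (difference 2.51 ± 0.19, adjusted p = 5.86e-08, limma). Pmaip1 (Noxa), a pro-apoptotic BH3 protein, rose by 4.61 ± 0.37, with 9.55 and 8.89 in Ck-PGCLCs, against 5.56 and 3.64 in PGCs.

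The others were Trp53inp1, Cdkn1a (p21, which arrests the cell cycle), Perp and Aen, at 1.89, 1.59, 1.35 and 1.03. Cdkn1a was close to the threshold (adjusted p = 0.0465, limma). Neither Cdkn1a nor Aen was called without Ck-PGCLC array 1 or without PGC array 2. The 4 Aen probe sets, all above the dim level, ranged from -0.03 to 1.03, and Aen was not called with their mean. Mdm2, the E3 ligase that limits p53, and Bbc3 (Puma) passed the test at 0.81 and 0.93 but stayed under 2-fold. In ESCs Phlda3 and Ccng1 averaged 10.11 and 10.84, in the epiblast 9.66 and 10.31, and in Ck-PGCLCs at day 4 8.23 and 9.05, so these 3 groups read higher than the PGCs too. Trp53 and Bax were not analysed here.

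Of 21 tested amino acid stress and unfolded protein genes 5 were higher and 0 lower (median 0.59; 4 to 7 with 1 array left out). Nupr1, a small stress-induced chromatin protein, read 7.49 and 7.23 in Ck-PGCLCs, against 0.71 and 1.67 in PGCs, at least 9.91-fold higher (adjusted p = 1.13e-09, limma); both PGC arrays were far under the dim level. Chac1, which degrades glutathione, and Trib3, a pseudokinase that restrains Atf4, rose by 2.45 ± 0.20 and 1.94 ± 0.28. Sesn2 rose by 1.87 and Cth, which makes cysteine, by 1.76. Asns and Slc3a2, other Atf4 targets, passed the test under 2-fold, at 0.48 and 0.81. Beside this list and the immediate early and interferon lists that follow, 3.88% of all genes were called higher. Immediate early genes gave 4 higher and 0 lower of 22: Junb, and the early response genes Nr4a1, Zfp36 and Btg2, by 1.94, 1.48 and 1.36 (3 or 4 with 1 array left out). Nr4a1 was not called without Ck-PGCLC array 1 or without PGC array 2. The other Btg2 probe set gave -0.11, and with the mean of all probe sets Btg2 was not called. Of 13 interferon and MHC class I genes Ifi35 and the peptide transporter Tap1 were higher, by 2.39 and at least 1.7-fold (2 to 4 higher with 1 array left out, 1 with the mean of all probe sets).

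Glycolysis and hypoxia genes leaned the other way, with 7 of 24 tested members lower and 2 higher (median -0.33; 6 or 7 lower with 1 array left out). Ldha, which turns pyruvate into lactate, read 9.35 and 8.82 in Ck-PGCLCs, against 12.69 and 12.74 in PGCs, 12.4-fold lower (difference -3.63 ± 0.33, adjusted p = 3.14e-07, limma). The lactate exporter Slc16a3 (Mct4) read 4.23 and 3.14 in Ck-PGCLCs, against 7.34 and 6.31 in PGCs, at least 6.87-fold lower. Pfkl, a phosphofructokinase, read 8.04 and 7.07 in Ck-PGCLCs, against 11.02 and 10.37 in PGCs, and fell by 3.14, with another probe set at -0.64.

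Tpi1, a glycolytic isomerase, read 10.48 and 10.56 in Ck-PGCLCs and 11.92 and 11.88 in PGCs, and the glucose transporter Slc2a1 (Glut1) 10.27 and 10.31 in Ck-PGCLCs and 11.38 and 11.35 in PGCs. Their falls, 1.38 and 1.07, were among the smaller but the replicates differed by no more than 0.1. Slc2a1 was not called when each array was centred on its median instead. Ankrd37 and P4ha1, a hypoxia-induced ankyrin protein and a collagen prolyl hydroxylase, fell by 2.03 and 1.17. The other P4ha1 probe set gave 0.50, and P4ha1 was not called with the mean of all probe sets, without Ck-PGCLC array 1 or without PGC array 2. Hk1, hexokinase 1, rose by 1.28, and so did Pfkp by 1.56, although another probe set gave -1.73, and with the mean of all probe sets neither was called. Aldoa passed the test at -0.57, under 2-fold, and Pkm was not called (-0.24). Of 28 tested subunits of oxidative phosphorylation 0 were called in either direction, with a median of -0.09. Of 22 cholesterol and fatty acid genes 0 were called, beside 7.26% of all genes.

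The promoters of 3 lower genes are shown because ACGTG, the core of the hypoxia response element, occurred in the 250 bases before the start of 5 of the 7 lower members and in 12 of all 22 tested members with a RefSeq promoter, against 20.7% of tested genes. Capitals mark ACGTG on either strand; the 6-base E-box CACGTG contains it. The coordinates are GRCm38.p6: Ldha chr7:46845554-46845803, Slc16a3 chr11:120948817-120949066 and Slc2a1 chr4:119108495-119108744, all on the plus strand.
Ldha: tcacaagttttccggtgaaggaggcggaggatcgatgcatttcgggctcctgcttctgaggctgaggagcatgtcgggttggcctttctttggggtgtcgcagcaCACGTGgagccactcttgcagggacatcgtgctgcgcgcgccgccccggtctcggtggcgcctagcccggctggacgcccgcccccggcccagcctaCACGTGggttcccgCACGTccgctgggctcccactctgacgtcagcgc
Slc16a3: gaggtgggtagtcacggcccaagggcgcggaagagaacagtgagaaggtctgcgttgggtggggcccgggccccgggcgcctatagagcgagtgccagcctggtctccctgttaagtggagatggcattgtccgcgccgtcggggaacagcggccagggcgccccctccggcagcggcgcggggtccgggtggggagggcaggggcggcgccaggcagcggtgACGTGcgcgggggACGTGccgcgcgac
Slc2a1: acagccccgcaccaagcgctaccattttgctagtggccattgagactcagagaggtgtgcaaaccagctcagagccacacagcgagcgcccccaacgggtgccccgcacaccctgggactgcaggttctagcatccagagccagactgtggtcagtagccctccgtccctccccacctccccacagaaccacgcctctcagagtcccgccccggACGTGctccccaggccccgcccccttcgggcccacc
Both higher members, Pfkp and Hk1, had 0 matches in the window, and 7 of the 13 members that were not called had one or more.

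**Figure D3:**
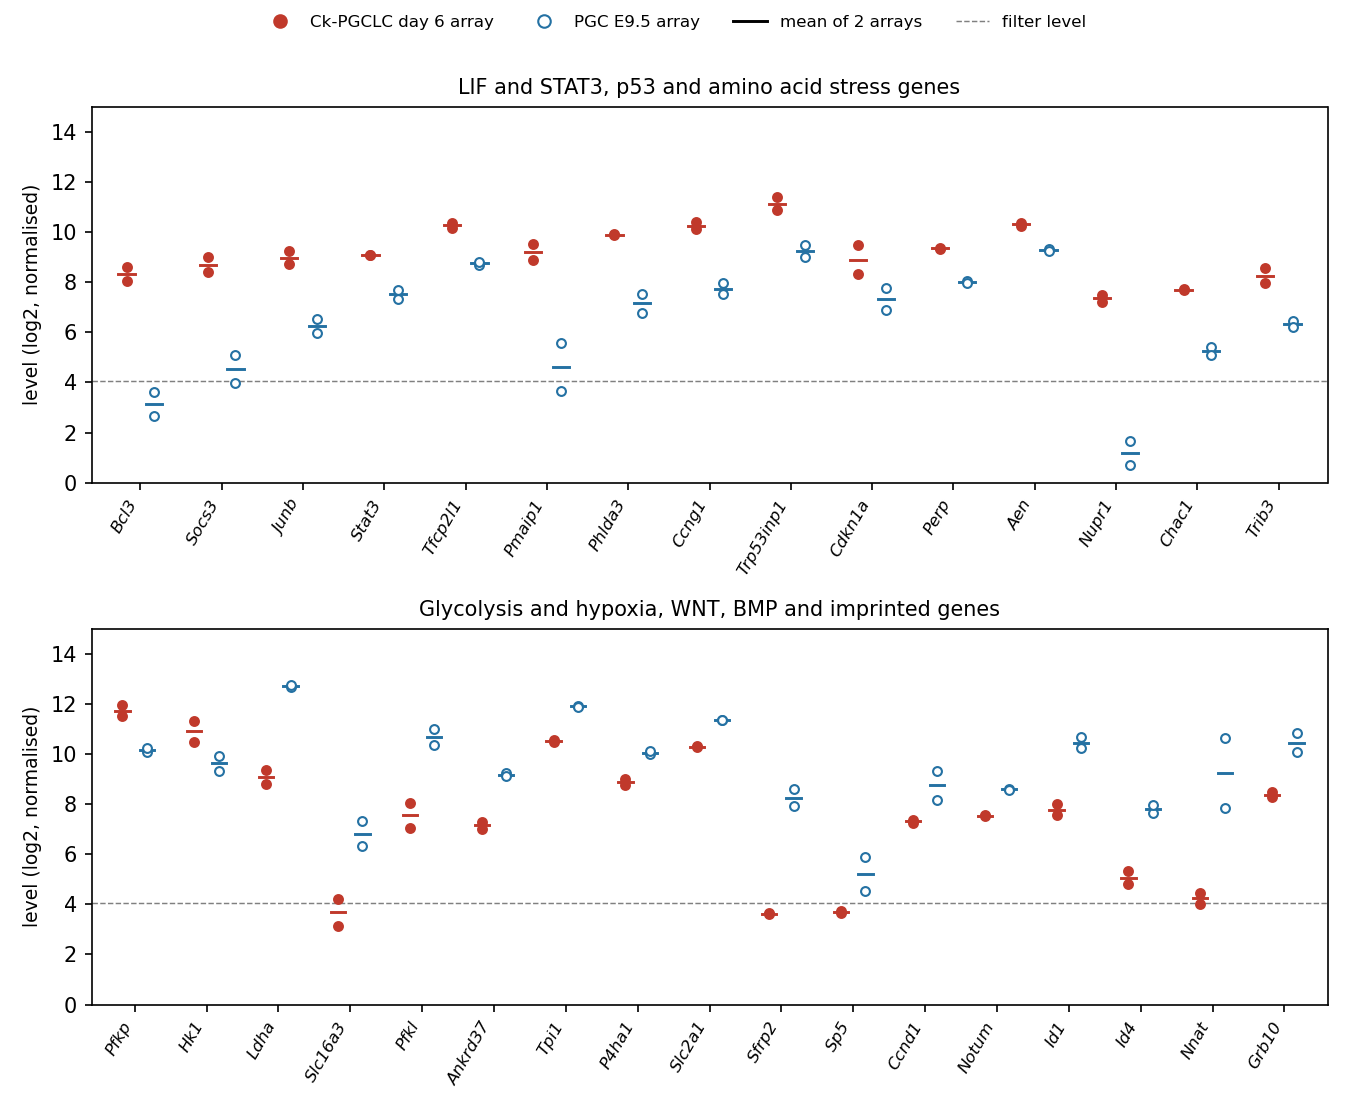
Log2 level (y axis) of LIF and STAT3, p53 and amino acid stress genes (upper panel) and of glycolysis and hypoxia, WNT, BMP and imprinted genes (lower panel) in each array; filled points are the 2 Ck-PGCLC day 6 arrays, open points the 2 PGC E9.5 arrays, short bars the means of 2 arrays and the dashed line the filter level of 4.05. Every gene of the upper panel is higher in Ck-PGCLCs, and Ldha reads 9.35 and 8.82 in Ck-PGCLCs, against 12.69 and 12.74 in PGCs.

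Among WNT and BMP response genes, 7 were called lower and 1 higher, beside 3.38% and 3.88% of all genes. Of 16 WNT response genes 0 were higher and 4 lower (2 without PGC array 1). Sfrp2, a secreted WNT modulator, read 3.62 and 3.65 in Ck-PGCLCs, against 8.60 and 7.92 in PGCs, at least 18.5-fold lower (adjusted p = 5.86e-08, limma). The other lower members were cyclin D1 (Ccnd1) and Notum, at -1.44 and -1.04, and Sp5, given above. Of 17 BMP response genes 1 was higher and 3 lower, in each fit without 1 array too. Id1, a direct BMP target that blocks bHLH factors, read 7.99 and 7.55 in Ck-PGCLCs, against 10.70 and 10.23 in PGCs, 6.47-fold lower (adjusted p = 2.35e-08, limma). Id4 and Msx1 fell by 2.75 and 1.59. The ligand gene Bmp4 itself was higher, with 8.82 and 9.25 in Ck-PGCLCs, against 7.34 and 7.15 in PGCs.

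Adhesion and G1 genes held a few calls each and S and G2/M genes 0, beside 7.26% of all genes. Of 18 genes of germ cell adhesion, migration and survival receptors 1 was higher, the tetraspanin Cd9 (1.79 ± 0.24), and 2 were lower, N-cadherin (Cdh2, -2.01 ± 0.29) and Cd24a (-1.96 ± 0.21). With 1 array left out 1 or 2 were higher and 2 to 4 lower. Cd24a, a surface glycoprotein, read 10.44 and 10.63 in Ck-PGCLCs and 12.36 and 12.62 in PGCs. Of 19 genes of the S and G2/M phases 0 were called in either direction. Of 15 G1 cyclins and Cdk inhibitors, Cdkn1a was higher and Ccnd1 lower, as given above, and the Cdk inhibitor Cdkn2b (p15) was at least 2.71-fold higher, its PGC arrays being dim (5.60 and 5.38 in Ck-PGCLCs, against 2.98 and 3.23 in PGCs).

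Imprinted genes, whose marks are erased in PGCs, were called higher in 0 and lower in 2 of 23 tested members. The shares over all genes were 3.88% and 3.38%, so these few calls are not read as a result about the list. The list median was -0.34. Without PGC array 2 the lower count was 4, and without PGC array 1 there were 1 higher and 2 lower members and the median was 0.07. Nnat, expressed from the paternal allele, read 4.46 and 4.02 in Ck-PGCLCs, against 10.66 and 7.84 in PGCs, 32.2-fold lower (difference -5.01 ± 0.65, adjusted p = 2.43e-05, limma), with PGC array 1 nearly 3 units above array 2. Grb10, a growth factor receptor adaptor, fell by 2.08, although its probe sets ranged to -0.13. Of 10 trophoblast genes Wnt7b (8.46 and 8.18 in Ck-PGCLCs, against 6.05 and 6.50 in PGCs) and Eomes were higher, Eomes with the limits given above. The lists that follow held 1 higher call each, beside 3.88% of all genes. Of 10 chaperones Hspb1, of 14 metal and oxidative stress genes Gclm, and of 10 neural genes Stmn2 were higher, none of them in every fit without 1 array.

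**Figure D4:**
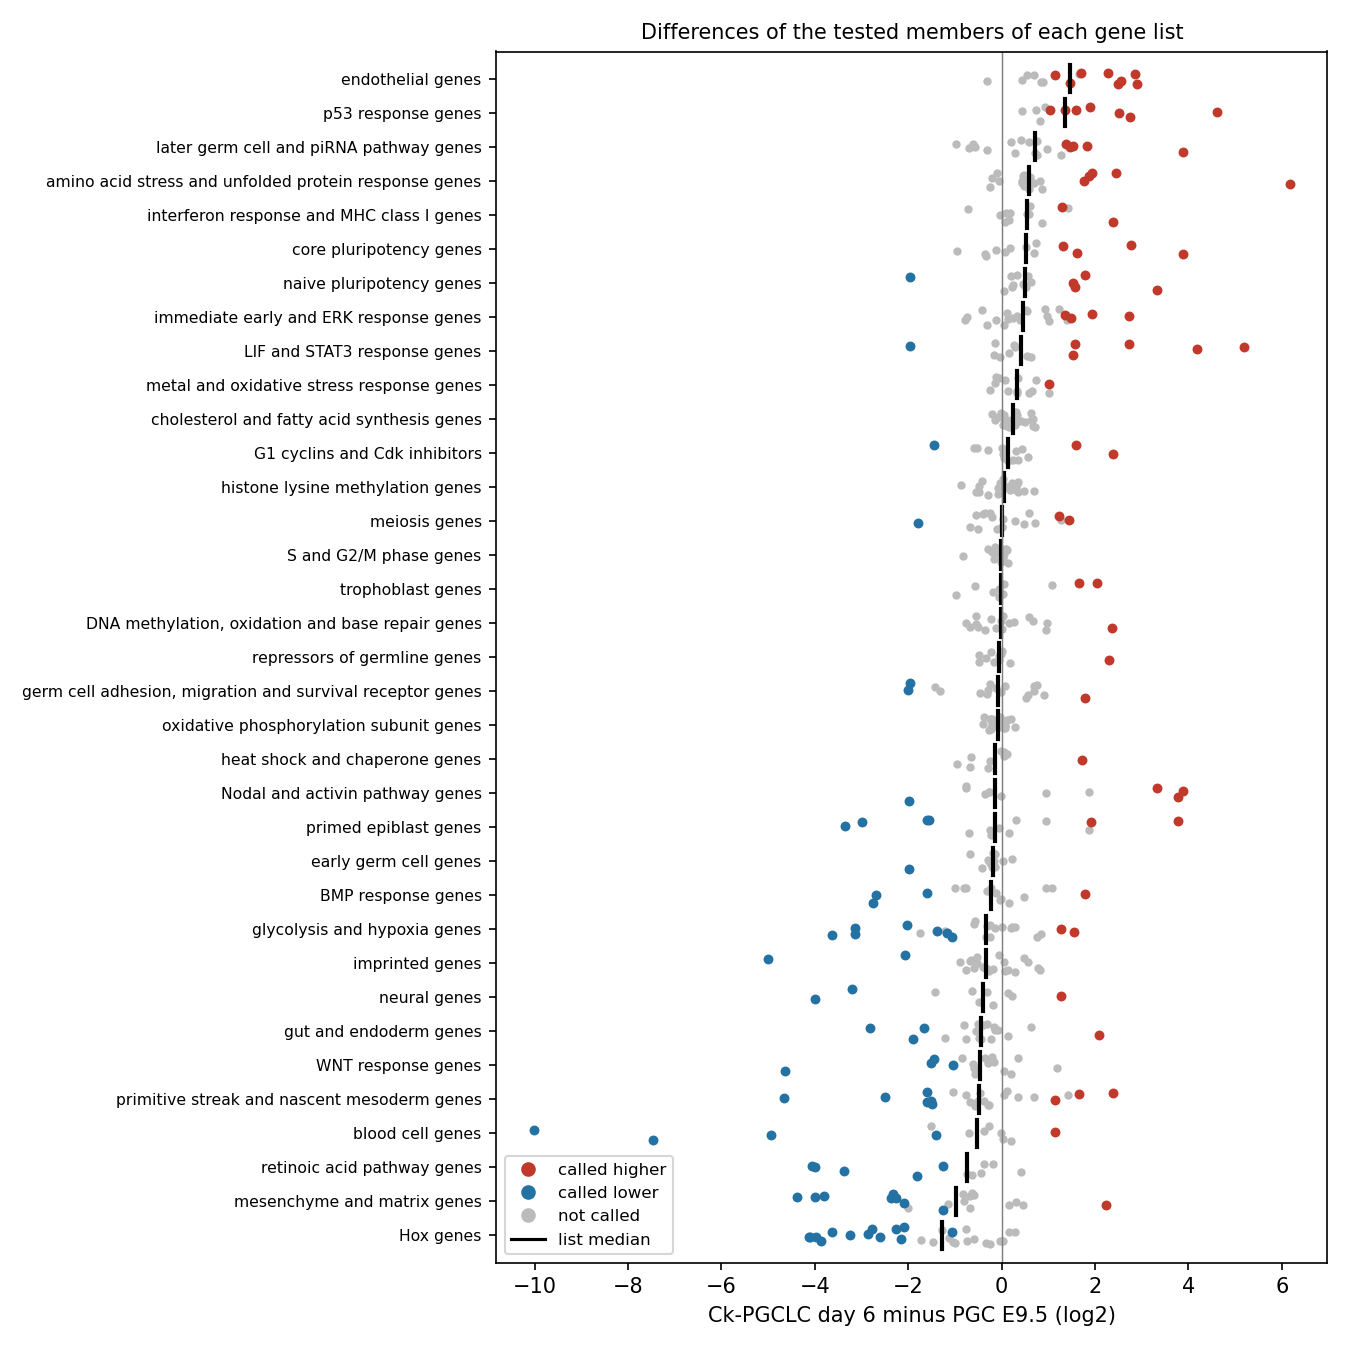
Difference of every tested member of the 35 gene lists, Ck-PGCLC day 6 minus PGC E9.5 on the log2 scale (x axis), 1 row a list in the order of the list medians (black bars); red points were called higher, blue points lower and grey points were not called. The p53 and endothelial lists lie to the right, the Hox, mesenchyme and retinoic acid lists to the left, and the histone, oxidative phosphorylation and cell cycle lists around 0.

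The largest rises held several genes outside these lists. Fabp3, a fatty acid carrier of muscle, read 11.09 and 10.44 in Ck-PGCLCs, against 5.57 and 4.59 in PGCs, 51.2-fold higher (adjusted p = 1.4e-09, limma), while its second probe set above the dim level differed by 0.26. Calcoco2, an autophagy receptor, read 12.10 and 11.73 in Ck-PGCLCs and 8.04 and 7.05 in PGCs, and the paraspeckle RNA Neat1 8.48 and 8.83 in Ck-PGCLCs and 4.91 and 3.89 in PGCs. Lcp1, an actin-bundling protein of blood cells, rose by 3.63 (10.19 ± 0.27 in Ck-PGCLCs, against 6.57 ± 0.01 in PGCs, SD, n = 2 each). The muscle fusion peptide gene Mymx, the potassium channel subunit Kcne3, the secreted protease Htra1 and the keratin Krt23 were the others among the 15 largest measured rises. Htra1 rose by 4.05, while Mymx, Kcne3 and Krt23, dim in PGCs, were at least 11.1-fold, 4.3-fold and 2.25-fold higher. Among the falls the arginine-degrading enzyme Arg1 read 2.85 and 2.73 in Ck-PGCLCs, against 7.64 and 6.13 in PGCs (at least 7.13-fold lower), and Greb1l, a retinoid-linked regulator of kidney development, 4.24 and 4.15 in Ck-PGCLCs, against 8.80 and 7.72 in PGCs. Tmem87a, a membrane protein of the secretory pathway, and the noncoding RNA Pantr1 completed the 15 largest measured falls and, dim in Ck-PGCLCs, were at least 11-fold and 2.98-fold lower.

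As a background for levels, the 577 higher genes had a median level of 7.69 in Ck-PGCLCs, against 5.81 in PGCs, and stood at 6.96 in Ck-PGCLCs at day 4, 6.88 in EpiLCs and 7.44 in ESCs. The 503 lower genes had a median of 5.34 in Ck-PGCLCs, against 7.19 in PGCs, with 6.26 in Ck-PGCLCs at day 4, 6.35 in EpiLCs and 5.72 in ESCs. PGCs were dim for 91 of the higher genes, and Ck-PGCLCs for 138 of the lower ones.

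As a comparison with another culture and embryo pair, EpiLCs at 48 h were set against the epiblast at E5.5. There 499 genes (3.35%) were higher in EpiLCs and 205 (1.38%) lower, 4.73% in all. Of the 577 genes higher in Ck-PGCLCs, 117 (20.3%) were also higher in EpiLCs, which is 23.4% of the EpiLC list. Of the 503 lower genes 44 (8.75%) were also lower in EpiLCs, or 21.5% of that list. Opposite calls were made for 11 genes higher in Ck-PGCLCs and lower in EpiLCs and for 20 the other way round. The 2 differences correlated at r = 0.22 (Spearman rho 0.19) across 14878 genes, which share arrays within each comparison and are not independent.

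Stress genes were called in both comparisons. In EpiLCs 12 of the 21 amino acid stress genes were higher and 0 lower, against 5 and 0 in Ck-PGCLCs. Nupr1 differed by 6.17 in Ck-PGCLCs minus PGCs and by 6.97 in EpiLCs minus epiblast, Chac1 by 2.45 and 4.88, and Trib3 by 1.94 and 3.69. Lefty1 (3.32 and 4.996), Lefty2 (3.78 and 2.39), Calcoco2 (4.37 and 3.54) and Mymx (5.37 and 4.19) were called higher in culture at both stages. Id1 was lower at both, by 2.69 in Ck-PGCLCs and by 3.12 in EpiLCs. For Nupr1, Mymx, Calcoco2 and Id1 the difference between the 2 stages did not pass the test (adjusted p = 0.392, 0.352, 0.651 and 0.432 in limma), while for Chac1, Trib3 and Lefty1 it was called below 0 and for Lefty2 above 0.

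The difference between the stages itself was tested as an interaction, germ cell stage minus epiblast stage. It was above 0 and called for 336 genes (2.26%) and below 0 for 517 (3.47%), 5.73% in all, and for 443 of the 1080 genes called in the germ cell comparison it had the same direction. The germ cell difference is a term of the interaction, so genes called for that difference pass it more often by construction. For the p53 list 5 of 11 members passed it upward, and the epiblast comparison called 1 of the 11 higher and 0 lower. Phlda3 differed by 2.74 in Ck-PGCLCs minus PGCs, against 0.63 in EpiLCs minus epiblast (interaction 2.11, adjusted p = 2.82e-05, limma). Socs3 differed by 4.17, against 0.32 (interaction 3.86, adjusted p = 0.000709, limma), and Ldha by -3.63, against -0.34 (interaction -3.30, adjusted p = 0.000162, limma). Of the Hox genes 9 of 29 passed it downward, and of the endothelial genes 3 upward and 1 downward.

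Among the genes named here 11 were called in opposite directions at the 2 stages. Eomes was higher in Ck-PGCLCs (1.66) and lower in EpiLCs (-3.48), as were Lhx1 (2.39 and -4.20), Bmp4 (1.78 and -2.79), Otx2 (1.92 and -1.50), Nid1 (2.23 and -1.62), Sox7 (1.70 and -1.58) and Lcp1 (3.63 and -1.90). For Otx2 the means of both Ck-PGCLCs and PGCs were dim, so its rise rests on values under the dim level. For Eomes the PGC arrays were dim, and its other probe set differed by 0.53 between Ck-PGCLCs and PGCs. Gbx2, Sox1, Pcdh8 and Aldh1a2 were lower in Ck-PGCLCs (-1.95, -3.21, -5.35 and -4.06) and higher in EpiLCs (2.65, 3.20, 2.90 and 1.24). All 11 passed the interaction test, which opposite calls at the 2 stages make likely by construction.

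**Figure D5:**
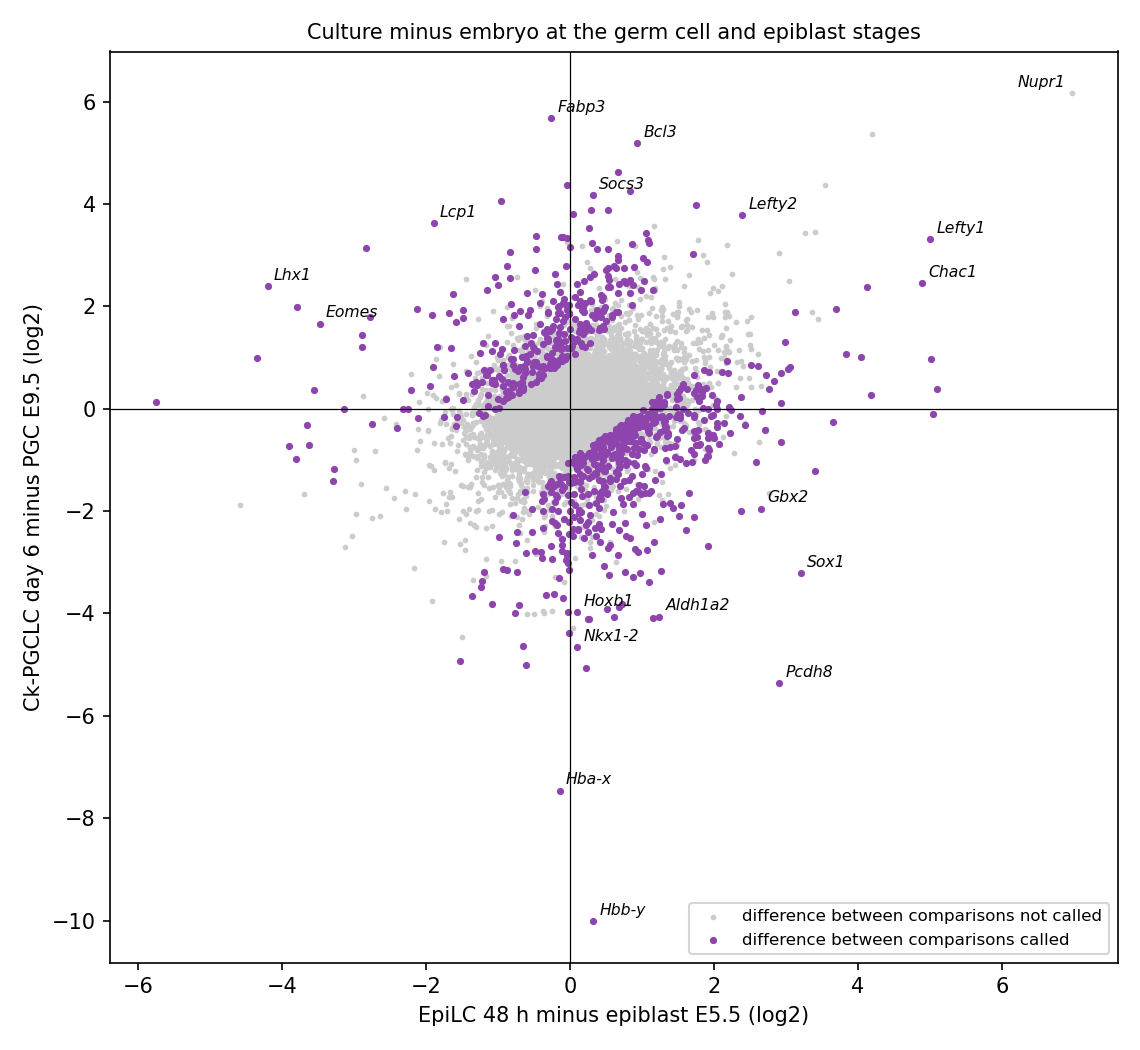
Difference of each of 14878 autosomal genes in EpiLC 48 h minus epiblast E5.5 (x axis) and in Ck-PGCLC day 6 minus PGC E9.5 (y axis), both on the log2 scale; purple points passed the test of the difference between the comparisons and grey points did not. Nupr1, Lefty1 and Chac1 lie high on both axes, Socs3 lies at 4.17 on the y axis and 0.32 on the x axis, and the globins Hbb-y and Hba-x lie lowest.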

How the data were processed

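Each sample was hybridised to a 1-colour mouse expression array after the cDNA of about 20000 cells was amplified by PCR, per the labels' protocols. The authors deposited log2 values, of which 32 arrays in 16 groups of 2 were used; no source used here names the software behind them, so it is not given. The deposited medians differed by more than 0.1, so arrays were quantile normalised together.

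Of 45101 probe sets 64 were controls, 35890 were listed with a gene in the platform annotation, and 34958 of these had 1 symbol (932 had several and name no gene here). Each of 18193 genes was represented by its probe set with the highest mean, and 9183 genes had only 1. The filter kept genes with at least 1 group mean at the 40th percentile (log2 4.05), leaving 15497 genes, 14878 of them on autosomes by RefSeq GRCm38.p6. A means model of the 16 groups (16 residual degrees of freedom) was fitted with limma 3.58.1 in R 4.3.3, and p-values were Benjamini-Hochberg adjusted over all genes tested. The number of arrays limits the precision. The pipeline was tested on simulated data.

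The members and the gene lists were chosen with earlier results of these data known. Genes are named by rule: the 15 largest rises and falls whose arrays do not overlap, up to 4 rises and 4 falls from each list, a fixed set of germ cell genes, and further list members to account for a list. Alternatives covered normalisation, filters, probe sets, fits on fewer arrays, a replicate block, a Gapdh 5' minus 3' covariate and leaving out each array. Counts per list without an array were added after seeing the data. Promoters are the 250 bases before RefSeq starts.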

Additional observations from a re-analysis of the deposited data

Results flagged for a closer look

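For 78 of the 175 named genes that were tested, the culture minus embryo difference itself differed between the germ cell stage (Ck-PGCLCs minus PGCs) and the epiblast stage (EpiLCs minus epiblast). Each passed the test of that difference in limma, at an adjusted p (Benjamini-Hochberg) below 0.05 and at least 2-fold in size. Over all autosomal genes tested 5.73% passed it. Of the 175 genes 133 were called at the germ cell stage, and the germ cell stage difference is a term of the tested one. A higher share among named genes was therefore built in by how they were chosen. The value beside each gene below is the difference at the germ cell stage minus that at the epiblast stage, on the log2 scale. It was above 0 for 33 genes and below 0 for 45. No explanation is weighed here.

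Among the globins, trunk, tailbud and neural genes it was below 0: Hbb-y (-10.33), Hba-x (-7.31), Hbb-bh1 (-3.40) and Klf1 (-1.96) of the blood list, Hoxa2 (-4.36), Hoxb1 (-4.07), Hoxb2 (-3.78), Hoxb9 (-3.39), Hoxc4 (-4.37), Hoxc8 (-4.55) and Hoxd9 (-2.29) of the Hox genes, Meox1 (-4.36), Twist1 (-4.53), Dcn (-3.03), Mdk (-2.66) and Postn (-2.65) of the mesenchyme list, Pcdh8 (-8.25), Nr2f1 (-5.28), Nkx1-2 (-4.76), Sox1 (-6.41), Sox11 (-2.14), Foxa1 (-2.21), Gbx2 (-4.60), Greb1l (-4.69) and Arg1 (-5.24) of the developmental genes, and Aldh1a2 (-5.30), Crabp1 (-4.48) and Crabp2 (-3.22) of the retinoic acid pathway. The same held for Ldha (-3.30), Slc16a3 (-3.13), Pfkl (-2.27) and Ankrd37 (-2.18) of the glycolysis and hypoxia list and for Sfrp2 (-3.97), Notum (-1.06), Nnat (-4.40) and Grb10 (-2.35) of the WNT and imprinted lists.

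It was also below 0 where the rise was larger in EpiLCs, with Chac1 (-2.43), Trib3 (-1.75), Cdkn2b (-1.74) and Lefty1 (-1.68), and for 5 more genes that were not called in Ck-PGCLCs, Asns (-1.09), Cldn5 (-2.29), Gdf3 (-2.41), Dppa3 (-1.42) and Ifitm3 (-1.52).

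It was above 0 for Dazl (3.36), Ddx4 (1.06) and Hormad1 (1.97) of the germ cell and meiosis lists, Tdgf1 (3.59), Dppa2 (1.90), Dppa4 (1.15), Lefty2 (1.39), Otx2 (3.41) and Dnmt3l (1.82) of the pluripotency and DNA methylation genes, Bcl3 (4.25), Socs3 (3.86) and Stat3 (1.15) of the LIF list and Pmaip1 (3.95), Phlda3 (2.11), Ccng1 (1.98), Perp (1.53) and Trp53inp1 (1.25) of the p53 list. Of these, Otx2 had dim means in both Ck-PGCLCs and PGCs. Endothelial and streak genes above 0 were Esam (2.23), Tek (2.15), Sox7 (3.28), Lhx1 (6.59) and Eomes (5.14). The remaining genes above 0 were Fabp3 (5.94), Lcp1 (5.52), Htra1 (5.005), Bmp4 (4.57), Kcne3 (4.42), Nid1 (3.85), Krt23 (3.77), Neat1 (3.42), Wnt7b (2.87), Pfkp (1.56) and Cd9 (1.36).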

How the results depend on the processing

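Ck-PGCLC minus PGC counts (577 higher, 503 lower) stayed within 1.5 times under the deposited values, median centring, quantile normalisation of the 10 earlier arrays, each filter, the mean of all probe sets, trended robust moderation, the Gapdh covariate and an adjusted p of 0.01. Fits on fewer arrays have fewer degrees of freedom: the 10 earlier arrays gave 419 higher and 321 lower, and the 4 compared arrays 148 and 106. With no fold limit the counts were 1031 and 790, and at 4-fold 153 and 171. Leaving out 1 array gave 505 to 646 higher and 322 to 616 lower, the lowest without PGC array 1; a lone array is then assumed to vary like the other groups. EpiLC minus epiblast counts (499 and 205) were 226 and 79 in the 10 earlier arrays, and 332 to 538 and 127 to 238 without 1 array, lowest for both without epiblast array 2. For the difference of the comparisons (336 and 517) they were 77 and 116, and 225 to 384 and 304 to 673 (304 without PGC array 1). The cause of the array dependence was not tested.

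The labels number the arrays but do not say that equal numbers share a culture or day. Deviations of equally numbered arrays correlated at 0.458 (Ck-PGCLC and PGC) and 0.283 (EpiLC and epiblast). Over all group pairs, these 2 among them, the values ran from -0.348 to 0.522. The value of 0.458 lies near the top of that range, and whether equal numbers share a culture or day cannot be told from it. With a replicate block the counts were 586 and 508, 501 and 212, and 358 and 545, and all 133 calls of named genes were kept. Of these 133, 132 were kept under the deposited values, 111 with the mean of all probe sets, 104 in the 10 earlier arrays, and 106, 114, 110 and 107 without Ck-PGCLC array 1, Ck-PGCLC array 2, PGC array 1 and PGC array 2.

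Among the named genes every change of sign fell on one not called; of all 1080 called genes 1079 kept their sign without Ck-PGCLC array 2, 1076 without PGC array 1 and 1080 without either other array. With the mean of all probe sets Dnmt1 was -0.014 and Hoxa9 -1.41, which was then called (adjusted p = 0.000268 in limma). With the Gapdh covariate Hoxa9 was -0.014. With 1 array left out the values spanned 0 as follows. Lowest without Ck-PGCLC array 2 and highest without Ck-PGCLC array 1 were Dnmt1 (-0.032 to 0.096), Ehmt2 (-0.15 to 0.21), Ezh2 (-0.21 to 0.28) and Hoxa9 (-0.12 to 0.13). Lowest without PGC array 1 and highest without PGC array 2 were Kit (-0.52 to 0.047), Pecam1 (-0.10 to 1.49), Pou5f1 (-0.11 to 0.26) and Prdm1 (-0.25 to 0.29). Uhrf1 ran from -1.57 without PGC array 2 to 0.48 without PGC array 1.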

Other observations

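Array correlations over all genes tested placed the PGCs beside earlier Ck-PGCLCs too. PGC arrays correlated at r = 0.9521 to 0.9629 with Ck-PGCLCs at day 4, against 0.9382 to 0.9597 with Ck-PGCLCs at day 6, and Ck-PGCLCs at day 6 correlated at 0.9626 to 0.9699 with day 4. The day 4 arrays belong to another clone, background and submission, and the order was not tested. Outside the autosomes, 24 of 514 tested X-linked genes were higher and 32 lower in Ck-PGCLCs; the sex of the PGCs is not known.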
